A study of Mus musculus with 6 samples.

Results

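The genes described here are 45 mouse genes of cell division: the kinases and phosphatases of M phase, the spindle checkpoint, the kinetochore, the chromosomal passenger complex, the spindle motors and the machinery of cytokinesis. They were chosen by gene symbol among the 54232 genes of a count table of testis RNA, and each symbol matched a single gene of that table. RNA-seq was performed on testes of B6D2F1 mice at postnatal day 12 (P12), with 3 libraries labelled Dis3l2 WT, the control, and 3 libraries labelled Dis3l2 KO. The study describes its mutants as mice with Stra8-Cre and a floxed Dis3l2 allele over a deleted allele (Dis3l2 cKO). Stra8-Cre acts in part of the spermatogonia and in later premeiotic germ cells, so the somatic cells of the testis are not its target. By the genotype described, somatic cells of the mutants also carry the deleted allele beside the floxed allele. The labels do not give the Cre status of the control mice. Libraries held 33325483 to 44956193 counts. The labels number the libraries within a group and do not say that each came from its own animal. The paper calls them 3 biological replicates per condition. The p-values given here set the difference between groups against the spread between these libraries.

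Dis3l2 itself had 25.8, 23.5 and 23.0 CPM (counts relative to the library total, scaled by TMM factors) in control testes and 31.6, 25.4 and 27.5 CPM in the others. The groups overlapped, and the log2 fold change of 0.22 (standard error 0.11) did not pass the test (adjusted p = 0.136, edgeR's quasi-likelihood test), whereas with factors from somatic cell markers it was -0.33 and was called lower (adjusted p = 0.024, edgeR). The count covers all exons and all cells of the testis, somatic cells included. The design text of the series names Dis3 as the deleted gene. Dis3 fell from 139 ± 7.93 to 63.8 ± 4.55 CPM (SD, n = 3 each), and every KO-labelled library was below every control library. Its log2 fold change was -1.13 with TMM factors (adjusted p = 2.7e-07, edgeR). With factors from pan-germ cell markers, which moved the median of all genes by 1.16, it was 0.03. Because the labels and the design text name different genes, the second group is called KO-labelled throughout. Every listed marker of germ, Sertoli, Leydig, peritubular myoid, endothelial and macrophage cells had enough reads for the test, and so did 3 of 5 erythroid markers.

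During M phase, sister chromatids are held by spindle microtubules at kinetochores, which are built on centromeric chromatin. The spindle checkpoint delays anaphase until every kinetochore is attached, and the anaphase-promoting complex then releases separase, after which the central spindle and an actomyosin ring divide the cell. In the prepubertal testis spermatogonia and Sertoli cells divide by mitosis, and many of the same proteins are made in spermatocytes for the meiotic divisions.

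Most of these genes were lower in the KO-labelled testes. Of the 45 genes, 44 had enough reads for the test. Of these, 38 were lower, 1 was higher and 5 did not pass, at an adjusted p below 0.05 (edgeR, adjusted over 20327 genes); the same test called 32.7% of all genes, 16.5% lower and 16.2% higher. The median log2 fold change was -0.96, against -0.02 over all genes tested. When libraries were scaled to pan-germ cell markers it was 0.19, with 1 gene lower and 15 higher. That scaling moved the median of all genes by 1.16 and called 287 of all genes lower and 15005 higher. Its factor is the summed count of 13 markers, so abundant ones weigh most. Dazl, the most abundant at 767 CPM in the control, fell by 1.66 on the log2 scale. The median log2 fold change of the 13 markers was -0.76. With TMM factors, a fall of 2-fold or more was called for 15 cell division genes, which is 34.1% of those tested, and for 6.05% of all genes. Every KO-labelled library was below every control library for 39 genes and above for 1 gene, Bub3, while 4 overlapped. Over all genes tested these shares were 23.8% and 21.7%.

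**Figure D1:**
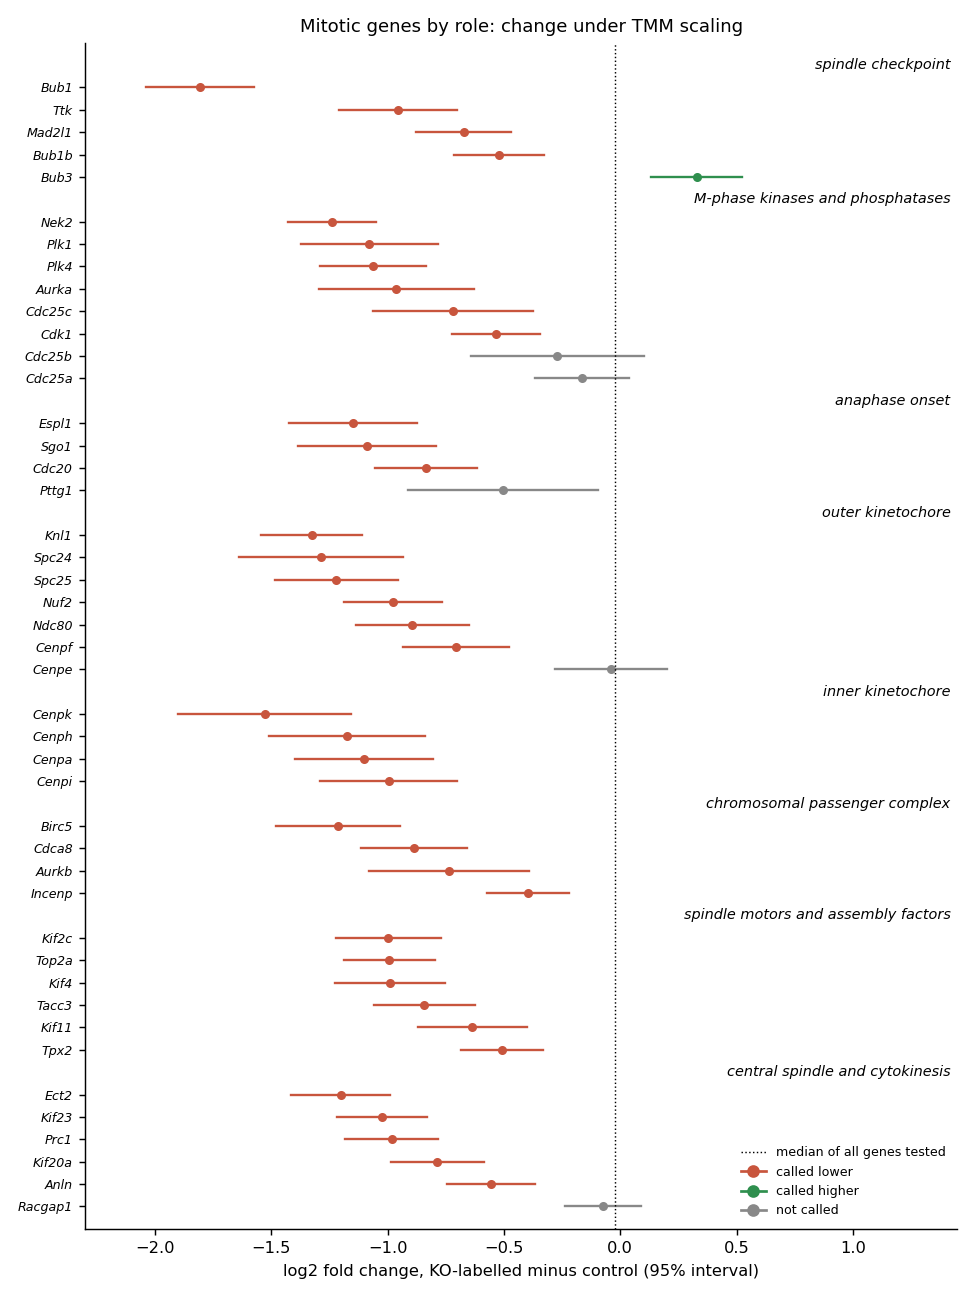
Log2 fold change of KO-labelled over control testes (x axis) with its 95% interval for the 44 tested genes, grouped by role. Under TMM scaling 43 of 44 points lie left of 0 and Bub3 lies right of it. Under pan-germ cell marker scaling 34 would lie right of 0, with the median of all genes at 1.13.

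A change of scaling factors moves all genes nearly alike, so the distance to other genes can be read without choosing among them. The median of the 44 genes lay below the median of all genes tested by 0.94 with TMM factors, by 0.93 with factors from somatic cell markers and by 0.95 with factors from pan-germ cell markers. The shared shift nearly fixes these distances, so the 3 scalings count as 1 result. With each of them 43 of the 44 genes were below the median of all genes. Bub3 was the gene above it. With no filter on low counts and TMM factors, the distance was 0.61 and 39 of 45 genes were below. The pan-germ cell factors move every gene up by about the same amount, and Bub1 was the gene still called lower with them. Levels below are CPM with TMM factors, and levels compared between genes are divided by gene length (RPKM).

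**Figure D2:**
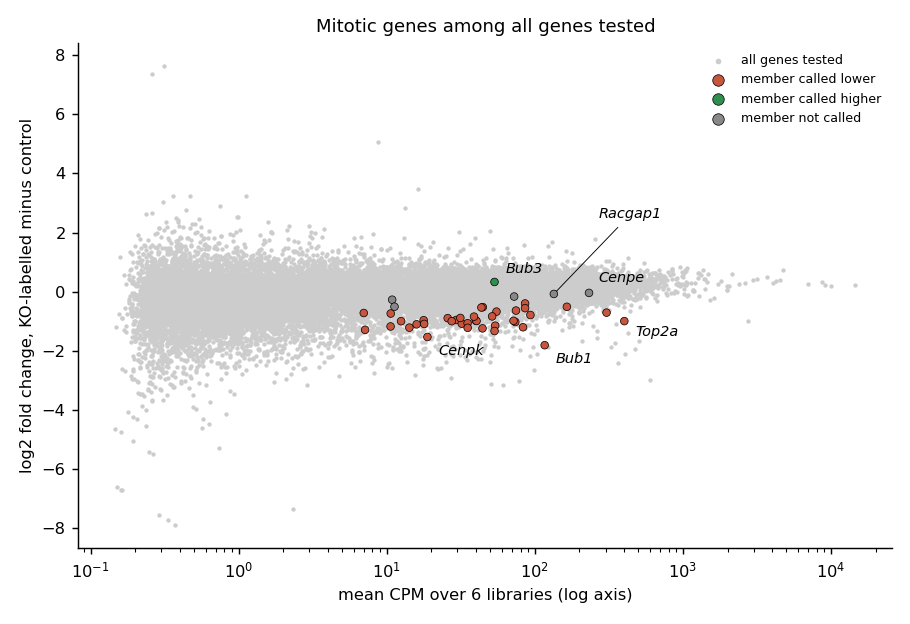
Log2 fold change (y axis) against mean CPM over the 6 libraries (x axis, log scale) for 20327 tested genes in grey, with the cell division genes coloured by their call under TMM scaling. 38 are lower and 1 is higher, and the 5 grey-filled points did not pass. Pan-germ cell marker scaling would turn these calls to 1 lower and 15 higher, and those of all genes to 287 lower and 15005 higher.

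Germ cell RNA also took a smaller part of the KO-labelled libraries. The summed level of the 45 genes ran from 3388 to 3827 CPM in control testes and from 2010 to 2395 CPM in KO-labelled testes. Of 13 pan-germ cell markers 10 were lower and 0 higher, and their sum ran from 1953 to 2216 CPM in control testes and from 802 to 1059 CPM in KO-labelled testes. All 14 meiotic prophase markers were lower, with sums of 1466 to 1769 and 356 to 472 CPM. Of 8 markers of differentiating spermatogonia 5 were lower and 1 higher, with a median log2 fold change of -1.40 and sums of 731 to 765 and 466 to 538 CPM. Markers of undifferentiated spermatogonia had 0 lower and 6 higher of 14, with sums of 308 to 323 and 346 to 435 CPM. In whole testes, fewer cells of a type and less RNA per cell cannot be told apart. The part of these marker shifts in the values of the cell division genes was not tested.

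Several somatic lists were higher in the KO-labelled libraries. Sertoli cell markers, whose cells still divide at this age, had 15 of 18 higher and 0 lower, with sums of 9489 to 9931 CPM in control testes and 14706 to 15763 CPM in KO-labelled testes. Leydig cell markers had 6 of 8 higher, and macrophage markers 5 of 7. Of 7 peritubular myoid cell markers 3 were lower. Endothelial markers had 2 of 8 higher and 0 lower, with a median log2 fold change of 0.03, and 0 of the 3 tested erythroid markers were called. Factors from somatic markers would move the median of all genes by -0.55. They are summed counts in which Sertoli cell markers weigh most, among them Clu and Aard at 3572 and 1706 CPM in the control. Within the KO-labelled group, replicate 3 had the highest level of 32 of the 44 genes and also the highest pan-germ cell sum. Within the control group replicate 2 had the highest level of 28 genes and the highest pan-germ cell sum. The share of all genes highest in these libraries was not computed. KO-labelled replicates 1 and 2 differed in order: the 44 genes had a median log2 CPM of 4.78 and 4.72, and the pan-germ cell sums were 802 and 924 CPM. Control replicates 1 and 3 kept the same order in both, with medians of 5.70 and 5.60 and sums of 1996 and 1953 CPM.

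**Figure D3:**
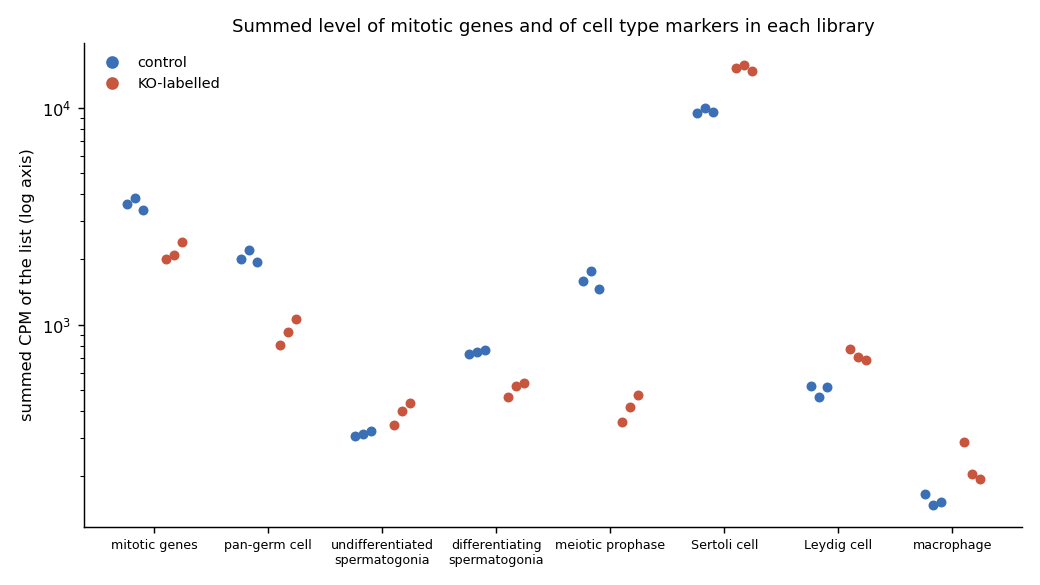
Summed CPM (y axis, log scale) of the cell division genes and of 7 marker lists in each control and KO-labelled library, 1 point per library. The cell division, pan-germ cell and meiotic prophase sums are lower in every KO-labelled library, and the Sertoli, Leydig and macrophage sums are higher in every one, with TMM scaling.

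The spindle checkpoint held both the largest fall and the only rise. Bub1, a kinase that recruits other checkpoint proteins to kinetochores (ENSMUSG00000027379.13, chromosome 2, 127801122 to 127831865 on GRCm38), reached 180, 208 and 156 CPM in control testes and 49.6, 48.1 and 57.5 CPM in KO-labelled testes. The lowest control library was thus far above the highest KO-labelled library. The log2 fold change was -1.81 (adjusted p = 3.6e-08, edgeR, with a standard error of 0.11), a level 3.50-fold higher in the control. Per length it was the most abundant checkpoint gene of the control, at 41.6 ± 5.96 RPKM (SD, n = 3), and had 11.9 ± 1.17 RPKM (SD, n = 3) in the KO-labelled testes.

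Ttk, the kinase (also called MPS1) that starts checkpoint signalling, had 40.2, 39.9 and 36.5 CPM in control testes and 17.2, 19.3 and 23.6 CPM in KO-labelled testes, with a log2 fold change of -0.96 (adjusted p = 3.1e-05, edgeR). Mad2l1, which encodes the MAD2 protein that inhibits CDC20, had 63.7, 75.0 and 64.3 CPM against 39.7, 41.7 and 45.9 CPM, a log2 fold change of -0.67 (adjusted p = 9.2e-05, edgeR). Neither gene overlapped between groups. Bub1b, encoding the BUBR1 subunit of the checkpoint complex, had the smallest fall of the group, at -0.52. Bub3, a WD-repeat protein that carries BUB1 and BUBR1 to kinetochores (ENSMUSG00000066979.6, chromosome 7, 131560222 to 131571895), went the other way. Its levels were 47.1, 46.5 and 48.4 CPM in control testes and 64.9, 53.5 and 60.0 CPM in KO-labelled testes, so that every KO-labelled library was higher. The log2 fold change was 0.33 (adjusted p = 0.012, edgeR, with a standard error of 0.09), but the call was lost without control replicate 1 (adjusted p = 0.057, edgeR) and the value was -0.22 when scaled to somatic markers.

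Promoter sequences show what these oppositely moving genes share near their start sites. Late cell cycle genes often carry a cell cycle genes homology region (CHR), which the MuvB complexes bind, and CCAAT boxes, which NF-Y binds. The bases from 100 before to 30 after the start of the RefSeq transcript (GRCm38.p6) are printed for the checkpoint genes with the largest fall and the only rise, with CHR letters (TTTGAA or TTCGAA, either strand, so also TTCAAA) and CCAAT letters (either strand, so also ATTGG) in capitals. Bub3 has 2 start sites in the table, and the window of the first is shown.
Bub1, chr2:127831830-127831959, minus strand: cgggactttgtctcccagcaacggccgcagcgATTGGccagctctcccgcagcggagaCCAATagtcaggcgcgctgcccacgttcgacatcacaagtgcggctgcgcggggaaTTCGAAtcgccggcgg
Bub3, chr7:131560270-131560399, plus strand: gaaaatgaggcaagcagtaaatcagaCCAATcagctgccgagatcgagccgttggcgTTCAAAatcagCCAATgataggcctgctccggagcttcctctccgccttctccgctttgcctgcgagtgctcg
Bub1 held a CHR match at position 15 after the start and CCAAT matches at -68 and -42, counting the first base of the match with no position 0. Bub3 held a CHR match at -43 between CCAAT matches at -74 and -32. Both motifs were thus present in both windows.

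Of the 45 genes, 39 had an entry among the RefSeq promoters, each from 250 bases before to 50 after a start site, and Tpx2, Incenp, Spc24, Cdc25c, Kif20a and Aurkb had none. The CHR letters were in a promoter of 26 genes (66.7% of those matched) and of 21.7% of 27025 genes in the table. The CCAAT letters were in 29 (74.4%) and in 41.1% of all genes. Both were in 22 (56.4%), against 8.61% of all genes; single promoters held them at 19.2% for the CHR, 37.4% for CCAAT and 7.52% for both. Of 26 tested genes with it 23 were lower with a median log2 fold change of -0.97, and of 12 without it 9 were lower with a median of -0.99, both with TMM scaling. A match of letters is a description of sequence and not of binding.

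Among the M-phase kinases and phosphatases 6 of 8 genes were lower, with a median log2 fold change of -0.84. Nek2, a kinase of centrosome separation, had 63.0, 62.8 and 60.9 CPM in control testes and 25.7, 25.3 and 28.1 CPM in KO-labelled testes. Replicates agreed closely and the groups were far apart, with a log2 fold change of -1.24 (adjusted p = 2e-07, edgeR, with a standard error of 0.09). Plk1, the polo-like kinase of mitotic entry and exit, had 47.2, 40.5 and 43.0 CPM against 16.8, 19.1 and 25.9 CPM, a log2 fold change of -1.08 (adjusted p = 4e-05, edgeR). It was the most abundant gene of the group per length, at 19.8 ± 1.55 RPKM (SD, n = 3) in the control. Plk4, which controls centriole duplication, had 47.2, 51.4 and 44.0 CPM against 22.3, 20.5 and 25.4 CPM, a log2 fold change of -1.06 (adjusted p = 5.1e-06, edgeR). No KO-labelled library of either polo-like kinase reached the control range. Aurka, the centrosomal Aurora kinase, fell by 0.96 and Cdk1, the kinase that drives entry into M phase, by 0.53 on the log2 scale.

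The CDC25 phosphatases, which remove inhibitory phosphates from cyclin-dependent kinases, include both genes of this group that did not pass the test. Cdc25c had 8.41, 8.12 and 9.59 CPM in control testes and 4.89, 5.84 and 5.11 CPM in KO-labelled testes, and fell by 0.72 on the log2 scale (adjusted p = 0.0031, edgeR). Cdc25a had 74.8, 82.0 and 72.9 CPM against 62.4, 65.6 and 77.1 CPM, and Cdc25b had 12.0, 10.2 and 13.4 CPM against 8.17, 12.6 and 8.83 CPM. The groups overlapped for both. Cdc25a had a log2 fold change of -0.16 (95% interval -0.37 to 0.04) and Cdc25b of -0.27 (95% interval -0.64 to 0.10), and neither passed the test (adjusted p = 0.21 and 0.26, edgeR).

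Of the 4 genes of anaphase onset 3 were lower, with a median of -0.96 over all 4. Espl1, which encodes separase, the protease that cleaves cohesin, had 72.2, 69.7 and 81.2 CPM in control testes and 28.1, 30.8 and 41.8 CPM in KO-labelled testes, with a log2 fold change of -1.15 (adjusted p = 1.3e-05, edgeR). Sgo1, the shugoshin that protects centromeric cohesin, had 22.5, 28.8 and 21.7 CPM against 10.7, 10.7 and 13.0 CPM, a log2 fold change of -1.09 (adjusted p = 3.9e-05, edgeR). Cdc20, the activator of the anaphase-promoting complex and the target of the checkpoint, had 64.3, 60.8 and 72.7 CPM against 35.5, 33.8 and 41.6 CPM, a log2 fold change of -0.83 (adjusted p = 2.9e-05, edgeR). The groups did not overlap for these 3 genes. Cdc20 was the most abundant of the 4 per length, at 35.3 ± 3.27 RPKM (SD, n = 3) in the control. Pttg1, encoding securin, the inhibitor of separase, had 12.1, 14.2 and 13.4 CPM against 11.2, 10.6 and 6.16 CPM. The highest KO-labelled library lay just below the lowest control, and KO-labelled replicate 3 stood low. Its log2 fold change of -0.51 (95% interval -0.91 to -0.10) did not pass with edgeR (adjusted p = 0.055) and did with DESeq2 (adjusted p = 0.038) and with limma-voom (adjusted p = 0.035).

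The Cdc20 promoter is shown because its match sits close to the start site of the most abundant gene of this group.
Cdc20, chr4:118437314-118437443, minus strand: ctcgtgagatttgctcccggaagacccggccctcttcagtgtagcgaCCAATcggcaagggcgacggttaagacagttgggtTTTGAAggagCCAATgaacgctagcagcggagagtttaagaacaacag
The CHR letters lie at -18, with CCAAT matches at -53 and -8.

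**Figure D4:**
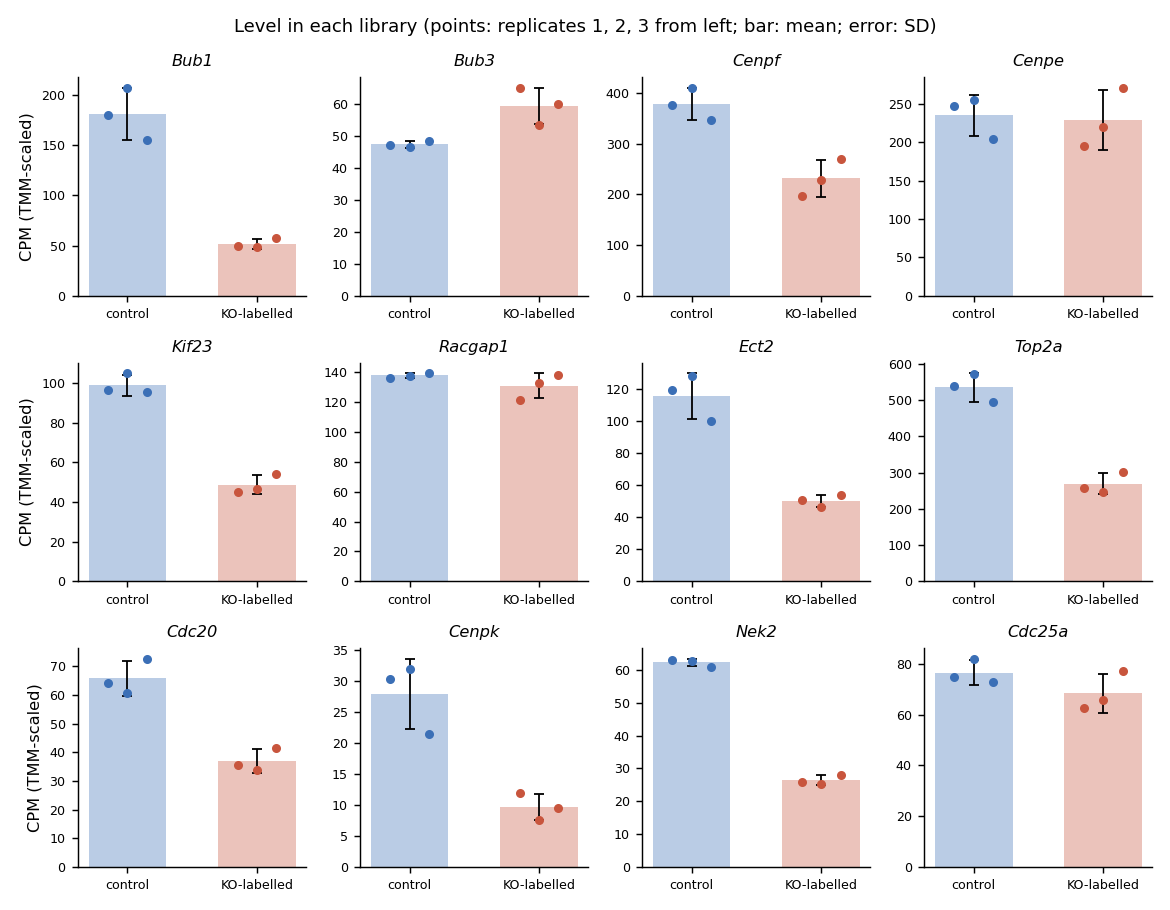
CPM (y axis) of 12 genes in the 3 control and 3 KO-labelled libraries, with a bar at the mean and the SD as error. The groups are apart for Bub1, Nek2, Cenpk, Kif23, Ect2, Cdc20, Cenpf and Top2a, Bub3 is higher in every KO-labelled library, and Cenpe, Racgap1 and Cdc25a overlap, with TMM scaling.

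At the outer kinetochore 6 of 7 genes were lower, with a median log2 fold change of -0.98. Knl1, the scaffold on which BUB1 docks, had 76.0, 81.7 and 71.6 CPM in control testes and 27.4, 29.5 and 34.4 CPM in KO-labelled testes, with a log2 fold change of -1.33 (adjusted p = 3.4e-07, edgeR, with a standard error of 0.10). The 4 subunits of the microtubule-binding NDC80 complex all fell. Spc24 had 10.8, 9.39 and 10.2 CPM against 3.55, 4.53 and 4.35 CPM, a log2 fold change of -1.29 (adjusted p = 4e-05, edgeR). Spc25 had 47.2, 59.1 and 41.4 CPM against 19.97, 22.2 and 21.2 CPM, a log2 fold change of -1.22 (adjusted p = 5.2e-06, edgeR). For both, every control library was well above the KO-labelled ones. Nuf2 fell by 0.98 and Ndc80 by 0.89 on the log2 scale.

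The large kinetochore proteins CENP-E and CENP-F differed from each other. Cenpf, which links kinetochores to dynein regulators, had 376, 411 and 347 CPM in control testes and 196, 227 and 270 CPM in KO-labelled testes, with a log2 fold change of -0.71 (adjusted p = 0.00015, edgeR). Cenpe, a kinesin that moves chromosomes to the spindle equator, was the most abundant outer kinetochore gene per length, at 27.3 ± 3.10 RPKM in the control and 26.5 ± 4.48 RPKM in the KO-labelled testes (SD, n = 3 each). Its levels were 247, 254 and 205 CPM against 195, 220 and 271 CPM, and KO-labelled replicate 3 was the highest of all 6 libraries. The log2 fold change of -0.04 (95% interval -0.28 to 0.20) did not pass the test (adjusted p = 0.82, edgeR), and it was 0.06 without control replicate 2 and 0.07 without KO-labelled replicate 1. The promoters are shown for this contrast.
Cenpf, chr1:189688057-189688186, minus strand: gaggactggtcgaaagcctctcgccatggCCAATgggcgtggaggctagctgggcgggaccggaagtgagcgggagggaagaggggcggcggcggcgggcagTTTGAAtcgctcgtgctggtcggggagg
Cenpe, chr3:135212463-135212592, plus strand: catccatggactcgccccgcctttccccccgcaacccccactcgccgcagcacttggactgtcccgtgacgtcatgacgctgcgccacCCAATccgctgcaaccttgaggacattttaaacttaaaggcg
Cenpf held the CHR letters at 3 after the start and a CCAAT match at -71. Cenpe held a CCAAT match at -12 and no CHR letters in the 130 bases. Over the longer promoter entries, 23 of 26 tested genes with the CHR letters were lower, and 9 of 12 without them. A link between the letters and this contrast was not tested.

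All 4 inner kinetochore genes were lower, with the lowest median of the 8 role groups at -1.14. Cenpk, a subunit of the centromere-associated network, had 30.4, 32.0 and 21.5 CPM in control testes and 11.9, 7.61 and 9.56 CPM in KO-labelled testes, with a log2 fold change of -1.53 (adjusted p = 1.5e-05, edgeR, with a standard error of 0.17). Its partner Cenph had 14.8, 15.3 and 14.1 CPM against 5.45, 6.19 and 7.91 CPM, a log2 fold change of -1.17 (adjusted p = 5.6e-05, edgeR). Cenpa, the histone H3 variant that marks centromeres, had 23.8, 18 and 23.3 CPM against 9.52, 9.60 and 11.2 CPM, a log2 fold change of -1.10 (adjusted p = 3.6e-05, edgeR). None of the 3 overlapped between groups, though control replicate 3 of Cenpk and control replicate 2 of Cenpa stood below the other control libraries. Cenph was the most abundant per length at 8.25 ± 0.334 RPKM (SD, n = 3) in the control, and Cenpi fell by 0.996 on the log2 scale.

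In the chromosomal passenger complex, which corrects faulty attachments and later guides cytokinesis, the 4 genes tested were all lower, with a median of -0.81. Birc5, encoding survivin, had 18.8, 19.98 and 20.8 CPM in control testes and 7.92, 8.73 and 9.04 CPM in KO-labelled testes, with a log2 fold change of -1.21 (adjusted p = 6.3e-06, edgeR). Cdca8, encoding borealin, had 38.9, 42.05 and 41.2 CPM against 19.8, 21.3 and 25.1 CPM, a log2 fold change of -0.89 (adjusted p = 2.4e-05, edgeR). The control levels of both were above every KO-labelled level. Aurkb, the kinase of the complex, had 13.7, 11.7 and 14.5 CPM against 6.60, 7.77 and 9.54 CPM, a log2 fold change of -0.74 (adjusted p = 0.0027, edgeR). Incenp, the scaffold, was the most abundant per length at 30.4 ± 1.31 RPKM (SD, n = 3) in the control. It had 94.5, 102 and 96.0 CPM against 69.7, 72.7 and 80.0 CPM. Its log2 fold change of -0.40 (adjusted p = 0.0019, edgeR) was the smallest of the 38 falls. Aurkc, the Aurora kinase of meiotic cells, had 0, 6 and 3 counts in control testes and 0, 0 and 1 counts in KO-labelled testes, which is too few for the test.

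All 6 spindle motors and assembly factors were lower, with a median log2 fold change of -0.92. Top2a, the topoisomerase that untangles sister chromatids, was the most abundant of all 45 genes per length, at 59.4 ± 4.37 RPKM in the control and 29.8 ± 3.20 RPKM in the KO-labelled testes (SD, n = 3 each). It had 538, 573 and 494 CPM against 258, 247 and 301 CPM, a log2 fold change of -0.99 (adjusted p = 2.4e-06, edgeR). Kif2c, a kinesin that depolymerises microtubules, had 35.5, 36.5 and 37.6 CPM against 16.4, 18.2 and 20.3 CPM, a log2 fold change of -0.997 (adjusted p = 8.4e-06, edgeR). Replicates of both genes lay close together and the groups were apart. Kif4, a kinesin bound to chromosome arms, had 54.1, 58.7 and 48.3 CPM against 28.3, 23.4 and 29.5 CPM, a log2 fold change of -0.99 (adjusted p = 1.2e-05, edgeR). Tacc3, a microtubule-stabilising factor, fell by 0.84, Kif11, the motor that separates spindle poles, by 0.64, and Tpx2, an activator of Aurora A, by 0.51 on the log2 scale.

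Of 6 genes of the central spindle and cytokinesis 5 were lower, with a median of -0.88. Ect2, the exchange factor that activates RhoA at the cell equator, had 119, 128 and 100 CPM in control testes and 50.7, 46.6 and 53.9 CPM in KO-labelled testes, with a log2 fold change of -1.20 (adjusted p = 8.4e-07, edgeR, with a standard error of 0.10). Kif23, the kinesin of the centralspindlin complex, had 96.5, 105 and 95.2 CPM against 45.2, 46.7 and 54.1 CPM, a log2 fold change of -1.02 (adjusted p = 1.7e-06, edgeR). Prc1, which bundles antiparallel microtubules, had 92.7, 103 and 89.8 CPM against 46.3, 44.8 and 53.6 CPM, a log2 fold change of -0.98 (adjusted p = 3.2e-06, edgeR). In each of the 3 the KO-labelled libraries lay far below the control range. Kif20a, a kinesin that brings the passenger complex to the central spindle, was the most abundant per length at 31.1 ± 1.38 RPKM (SD, n = 3) in the control, and its 119, 123 and 113 CPM stood against 61.1, 66.4 and 77.9 CPM, a log2 fold change of -0.79 (adjusted p = 2.1e-05, edgeR). Anln, encoding the actin-binding anillin, fell by 0.56 on the log2 scale. Racgap1, the partner of KIF23 in centralspindlin and the docking site of ECT2 (ENSMUSG00000023015.14, chromosome 15, 99620496 to 99651656), had 136, 138 and 139 CPM in control testes and 122, 133 and 138 CPM in KO-labelled testes. The groups overlapped, and the log2 fold change of -0.08 (95% interval -0.24 to 0.09) did not pass the test (adjusted p = 0.49, edgeR).

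The promoters of these 3 partners are printed because Kif23 and Ect2 fell and Racgap1 did not pass the test. Ect2 has 2 start sites in the table, and the window of the first is shown.
Kif23, chr9:61946770-61946899, minus strand: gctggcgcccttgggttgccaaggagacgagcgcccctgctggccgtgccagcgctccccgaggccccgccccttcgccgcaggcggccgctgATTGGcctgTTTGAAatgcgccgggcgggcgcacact
Racgap1, chr15:99651627-99651756, minus strand: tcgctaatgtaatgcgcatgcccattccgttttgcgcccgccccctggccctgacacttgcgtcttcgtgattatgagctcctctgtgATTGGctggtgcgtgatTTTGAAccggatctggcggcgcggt
Ect2, chr3:27153849-27153978, minus strand: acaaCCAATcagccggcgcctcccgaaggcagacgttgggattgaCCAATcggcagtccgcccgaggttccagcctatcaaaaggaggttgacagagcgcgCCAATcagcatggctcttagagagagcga
Kif23 and Racgap1 both held an inverted CCAAT match followed by the CHR letters, at -7 and 3 in Kif23 and at -12 and 6 in Racgap1. Ect2 held CCAAT matches at -96, -55 and 2 and no CHR letters in the bases shown. The longer promoter entries of Ect2 did hold the CHR letters, so it is among the 26 genes counted with them.

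Ratios of partner genes within a library do not depend on how libraries are scaled. They were computed from reads per kilobase for 14 pairs of partners or paralogs, and 7 pairs did not overlap between groups. The pairs were chosen with earlier results known, the share among other pairs was not computed, and the pair of Aurkc and Aurkb was left out of 15 planned because Aurkc had so few counts. For each of these 7 the exact permutation test gave p = 0.1 (two-sided, 20 arrangements), the smallest that 3 against 3 libraries allow, and 0.2 after Benjamini-Hochberg adjustment over the 14, so none could pass. The ratio of Racgap1 to Kif23 had a geometric mean of 1.56 in control and 3.005 in KO-labelled testes, a log2 difference of 0.95 between 0.64 ± 0.08 and 1.59 ± 0.08 (SD, n = 3 each). The ratio of Ect2 to Racgap1 moved by -1.12 on the log2 scale, and that of Bub1b to Bub1 by 1.28. Mad2l1 relative to Bub3 moved by -0.996. Each of these shifts was larger than the spread between replicates.

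Within the passenger complex, Birc5 relative to Incenp moved by -0.81 and Cdca8 relative to Incenp by -0.49 on the log2 scale, and Cdc25c relative to Cdc25b by -0.43. The other 7 pairs overlapped. For the NDC80 complex the log2 ratio of Nuf2 to Ndc80 was -0.87 ± 0.03 in control and -0.95 ± 0.18 in KO-labelled testes, and that of Spc24 to Spc25 was -1.96 ± 0.34 and -2.04 ± 0.12 (SD, n = 3 each). Plk4 to Plk1, Aurka to Aurkb, Cdc25a to Cdc25b, Pttg1 to Espl1 and Cenph to Cenpk also overlapped, with differences between -0.24 and 0.62. The spread of Pttg1 to Espl1 was the widest, at 0.78 (SD, n = 3) on the log2 scale in the KO-labelled libraries.

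**Figure D5:**
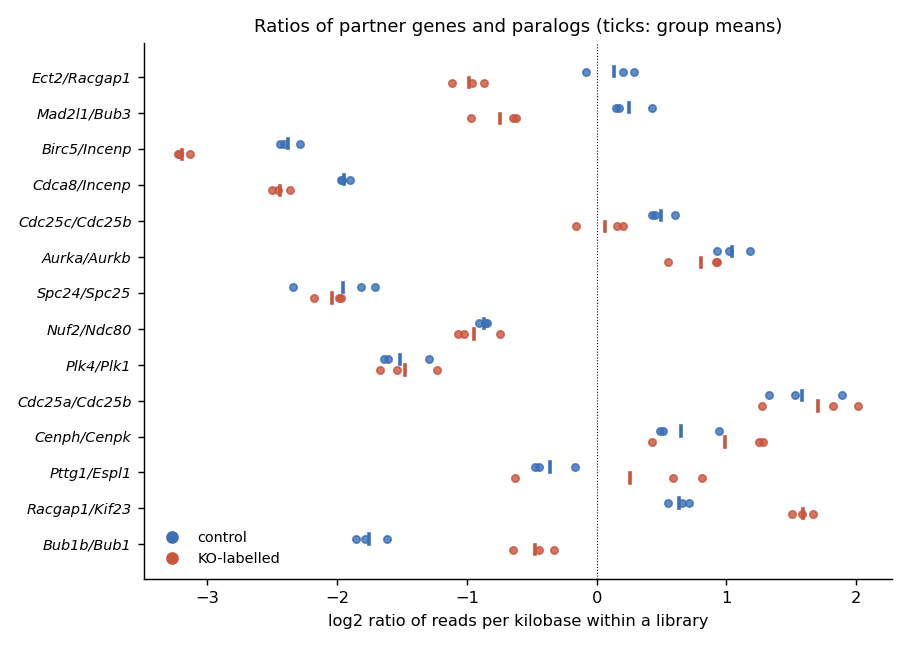
Log2 ratio of reads per kilobase within each library (x axis) for 14 pairs, with 1 point per library and ticks at group means. The groups are apart for 7 pairs, among them Bub1b/Bub1, Racgap1/Kif23 and Ect2/Racgap1, and overlap for 7, among them Nuf2/Ndc80 and Spc24/Spc25.

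A list of 89 other mitotic genes, written by function but with earlier results of these data known, was also mostly lower. Of these 68 were lower (76.4%, against 16.5% of all genes), 5 were higher and 16 did not pass (edgeR), with a median log2 fold change of -0.65. With pan-germ cell scaling 3 were lower and 52 higher, where 287 of all 20327 genes tested were lower and 15005 higher. The count of 5 higher was 1 without control replicate 3, 3 without control replicate 1 or without any 1 KO-labelled replicate, 3 with protein-coding genes only and 0 with factors from somatic markers. Among 29 other kinetochore and checkpoint genes 25 were lower and 2 higher; Ska3, of the complex that couples kinetochores to microtubules, had -1.53 (adjusted p = 2e-07, edgeR) and Mad2l1bp, which takes MAD2 off the checkpoint complex, had 0.55 (adjusted p = 0.022, edgeR). Of 19 other spindle genes 17 were lower and 1 higher, with Ckap2l at -1.14 and Numa1, a spindle pole protein that is also abundant in nuclei outside M phase, at 0.23. Of 8 condensin subunits 7 were lower, Smc4 by 1.14 on the log2 scale.

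The anaphase-promoting complex had the smallest share of lower genes among these lists. Of 18 subunits and regulators 7 were lower (38.9%, against 16.5% of all genes tested), 1 was higher and 10 did not pass, with a median of -0.17. Fbxo5, the inhibitor EMI1 of the complex, had the smallest adjusted p of the falls, with a log2 fold change of -1.14, and the subunit Cdc26 rose by 0.30. Among 15 other M-phase regulators 12 were lower and 1 higher, with Melk, a kinase of dividing cells, at -1.55 and Lin37, a subunit of MuvB, at 0.39. Of the 7 regulators in this list that belong to MuvB or join it at CHR promoters, a selection made after values were seen, 5 were lower, 1 was higher and 1 did not pass. Foxm1 fell by 0.90, Mybl2 by 0.64, Lin54, the CHR-binding subunit, by 0.63, Mybl1 by 0.42 and Lin9 by 0.40 on the log2 scale. Lin37 is the gene that was higher, and Lin52 had a log2 fold change of 0.11. The proliferation marker Mki67, also named after its value was seen, had 632, 605 and 577 CPM in control testes and 372, 400 and 486 CPM in KO-labelled testes. The groups did not overlap, and its log2 fold change was -0.53 (adjusted p = 0.0007, edgeR).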

How the data were processed

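Total RNA of whole testes at P12 was sequenced after strand selection and depletion of unwanted transcripts, in 3 control and 3 KO-labelled libraries. The authors used cutadapt for trimming, HISAT2 for alignment and featureCounts 1.6.4 for counting over GENCODE M18 genes (GRCm38.p5), on 1 strand and without multimapping reads, so genes with near-identical copies may be undercounted. The deposited values are raw counts, with gene lengths in bases; 0 library columns were left unused. Names came from GENCODE M21 for 54165 of 54232 genes.

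Counts were tested with edgeR 4.0.16 under R 4.3.3 (TMM, filterByExpr, glmQLFit, glmQLFTest) over 20327 genes, and an adjusted p under 0.05 is a call. Standard errors were derived from the log2 fold change and F statistic of that fit. The 95% intervals were built from them with a t quantile, so both are approximate. CPM and RPKM were computed from the counts. Ratios carry 0.5 added counts. The tests were checked on simulated data in which few genes changed, with as many rises as falls. That check does not cover the choice of scaling in these testes. No library was a copy of another, as replicates differed with a chi-square of 10.0 or more per degree of freedom. Deviations of same-numbered libraries correlated at -0.0014, -0.0126 and 0.0139, so no pairing by number was seen. A shared effect that is small beside the library noise would be missed this way, and the paper describes its controls as littermates. Alternatives were DESeq2 1.42.0, limma-voom (limma 3.58.1), other factors (RLE, upper quartile, summed markers of 5 somatic cell types, summed pan-germ cell markers), no filter, a minimum of 10 counts in each library, only protein-coding genes, a replicate block and each library left out. Plots used Python 3.11.15, pandas 2.3.3 and matplotlib 3.10.9.

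The genes, lists, pairs, tests and alternatives were chosen with earlier results of these data known. In each role group the text gives in every library up to 3 called genes with the largest change and the gene with the highest level per length, and names each gene that did not pass or moved against its group. Of the lists of other mitotic genes it names, for each direction, the gene whose adjusted p was smallest. Markers of cell types are named by abundance. The 8 promoters shown, and genes said to be, were chosen after values were seen.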

Additional observations from a re-analysis of the deposited data

How the results depend on the processing

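Factors from pan-germ cell markers, which move the median of all genes by 1.16, turned the direction of most values, while TMM, RLE, upper-quartile and somatic marker factors left 43 or 44 of the 44 cell division genes below 0. With somatic marker factors 11361 of all genes were lower and 267 higher, 43 of the cell division genes were lower and 0 higher (median -1.51), 0 other mitotic genes were higher, and the log2 fold change of Bub3 was -0.22 and that of Dis3l2 -0.33, also past the test (adjusted p = 0.024, edgeR). With pan-germ cell marker factors 287 of all genes were lower and 15005 higher, 1 cell division gene was lower and 15 higher (median 0.19), 3 other mitotic genes were lower and 52 higher, Dis3 was at 0.0273 and Dis3l2 at 1.39, then past the test. The log2 fold changes that turned positive there were Bub1b 0.65, Mad2l1 0.48, Ttk 0.19, Aurka 0.17, Plk1 0.0488, Plk4 0.0930, Cdk1 0.64, Cdc25a 0.99, Cdc25b 0.88, Cdc25c 0.43, Cdc20 0.31, Pttg1 0.69, Sgo1 0.0685, Ndc80 0.26, Nuf2 0.19, Cenpe 1.10, Cenpf 0.44, Cenpa 0.0377, Cenpi 0.16, Aurkb 0.39, Incenp 0.76, Cdca8 0.26, Kif11 0.51, Kif2c 0.15, Kif4 0.17, Tpx2 0.65, Tacc3 0.31, Top2a 0.16, Kif20a 0.36, Kif23 0.13, Prc1 0.17, Anln 0.59, Racgap1 1.08. Which scaling fits these testes was not tested.

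DESeq2, limma-voom, RLE factors, upper-quartile factors, no filter, a minimum of 10 counts in each library, only protein-coding genes and the replicate block each called 38 or 39 cell division genes lower and 1 higher, and the 38 called by the main test were lower in all of these. Without a filter the median of all genes was -0.33, and with protein-coding genes only 3 other mitotic genes were higher. The replicate block called 39 lower and 1 higher; the added gene was Pttg1, at -0.55 (adjusted p = 0.036, edgeR), and the block changed no other call of these genes. The labels do not say whether the numbers pair the libraries.

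Leaving out each library in turn gave 38 to 39 genes lower, 0 to 1 higher and a median of -1.01 to -0.87, and 1 to 4 other mitotic genes higher. Bub3 was not called without control replicate 1. Pttg1 ranged from -0.65 to -0.27 and was called without KO-labelled replicate 1. Cenpe ranged from -0.17 to 0.0709. The log2 ratio difference ranged from -0.0876 to 0.15 for Plk4 to Plk1, from -0.0340 to 0.34 for Cdc25a to Cdc25b and from -0.28 to 0.0349 for Spc24 to Spc25. Genes with few reads, such as Aurkc, limit what this depth can show.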
